A study of Mus musculus with 15 samples.

Results

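The genes that build and crosslink elastic fibres were followed in fibroblasts driven toward a cardiac muscle state. They are 10 genes chosen by symbol, namely the lysyl oxidases Lox, Loxl1, Loxl2, Loxl3 and Loxl4 and the elastic fibre genes Eln, Fbn1, Fbn2, Fbln5 and Mfap4. All 10 were listed among the 14091 features of the deposited RNA-seq table. The cells were mouse embryonic fibroblasts of the ICR strain, connective tissue cells grown from embryos, in 3 groups of 5 libraries each. In the MΔGΔT and MGT groups the fibroblasts had received the named factors by retrovirus and were collected 1 week later, and the MEF group is titled as control. MGT is the usual short form for the heart-forming transcription factors Mef2c, Gata4 and Tbx5. By its title the series engineered the effector domains of Mef2c and Gata4, and the labels do not define Δ further. They name no empty virus for the MEF group and no sorting of transduced cells, and they do not say whether the 5 libraries of a group came from separate cultures. The p-values below therefore measure the spread between these libraries, which may be technical.

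An elastic fibre is a core of crosslinked elastin laid on a scaffold of microfibrils made of fibrillins. Fbln5 encodes fibulin-5, which binds elastin and helps place it on the scaffold, and Mfap4 encodes a microfibril-associated protein that binds elastin and fibrillin. Lysyl oxidases are copper-dependent enzymes that turn lysines of elastin and fibrillar collagens into aldehydes, from which covalent crosslinks form. In the heart, elastic fibres are found in the great vessels, the valves and the matrix between muscle cells, and collagen crosslinking by lysyl oxidases is known for its effect on the stiffness of the wall.

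Library totals lay between 8.213 and 11.128 mega-counts, and all 10 genes passed the filter on low counts that left 13328 features for testing. The transduced factors were higher in every transduced library. Gata4 had 187 to 196 counts per mega-count (CPM) in MΔGΔT, 138 to 168 CPM in MGT and 1.92 to 3.13 CPM in MEF. The 12 fibroblast markers summed to 26300 to 28600 CPM in MΔGΔT, 31500 to 32900 CPM in MGT and 53400 to 62600 CPM in MEF. Most of that sum was Col1a1, Col1a2 and Col3a1. In MΔGΔT against MEF 9 of the 12 were called lower and 3 higher, beside 36.1% and 36.2% of all features. These 3 were Vim, Thy1 and S100a4, the last of them not called under RPKM-implied totals. In MGT against MEF 11 were called lower and 1 higher, beside 30.3% and 30.9% of all features, and Thy1 was at -0.59 log2 there. The 12 cardiac muscle markers summed to 11700 to 13100 CPM in MΔGΔT, 1380 to 1560 CPM in MGT and 7.5 to 8.15 CPM in MEF, where Myh7 was at 0. The 15 listed macrophage and leukocyte markers summed to 245 to 359 CPM in MΔGΔT, 199 to 363 CPM in MGT and 2650 to 3460 CPM in MEF. Smooth muscle markers summed to 5190 to 5580 CPM in MΔGΔT, 2260 to 2480 CPM in MGT and 1140 to 1250 CPM in MEF, and adipocyte markers to 85.3 to 103 CPM in MΔGΔT, 91.2 to 126 CPM in MGT and 1450 to 1550 CPM in MEF. No macrophage marker of the table was at 0 in any group. These are bulk libraries, in which fewer cells of a type and less RNA per cell cannot be told apart, and the part of these mixtures in the results below was not tested.

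Eln, Mfap4 and both fibrillins fell in both transduced groups, while the lysyl oxidases divided by subfamily: Lox and Loxl1 fell, and Loxl2, Loxl3 and Loxl4 rose. In MGT against MEF the rises of Loxl2 and Loxl4 were small, at 0.17 and 0.27 log2, and their libraries overlapped those of MEF. The median absolute change of all features there was 0.26. Of the 10 genes, 4 were called higher and 6 lower in MΔGΔT against MEF by edgeR's quasi-likelihood test at an adjusted p under 0.05. Across all features tested, 36.2% were called higher and 36.1% lower in that comparison. In MGT against MEF, 3 of the 10 genes were called higher and 7 lower, beside 30.9% and 30.3% of all features. In MΔGΔT against MGT, 5 were called higher and 5 lower, beside 30.4% and 27.8% of all features. Most of the transcriptome was thus called, and these genes are described by the size of their changes. The 10 genes were chosen with earlier results of these data known, so their contrast with all features is a description and no test. The median absolute log2 fold change of the 10 genes was 1.42 in MΔGΔT against MEF, 1.08 in MGT against MEF and 0.53 in MΔGΔT against MGT, beside 0.38, 0.26 and 0.24 for all features tested. The libraries of the groups did not overlap for 10 of the 10 genes in MΔGΔT against MEF, where 58.5% of all features did not overlap. They did not overlap for 8 of the 10 in MGT against MEF (45.8% of all features) and for 8 in MΔGΔT against MGT (45.3% of all features).

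**Figure D1:**
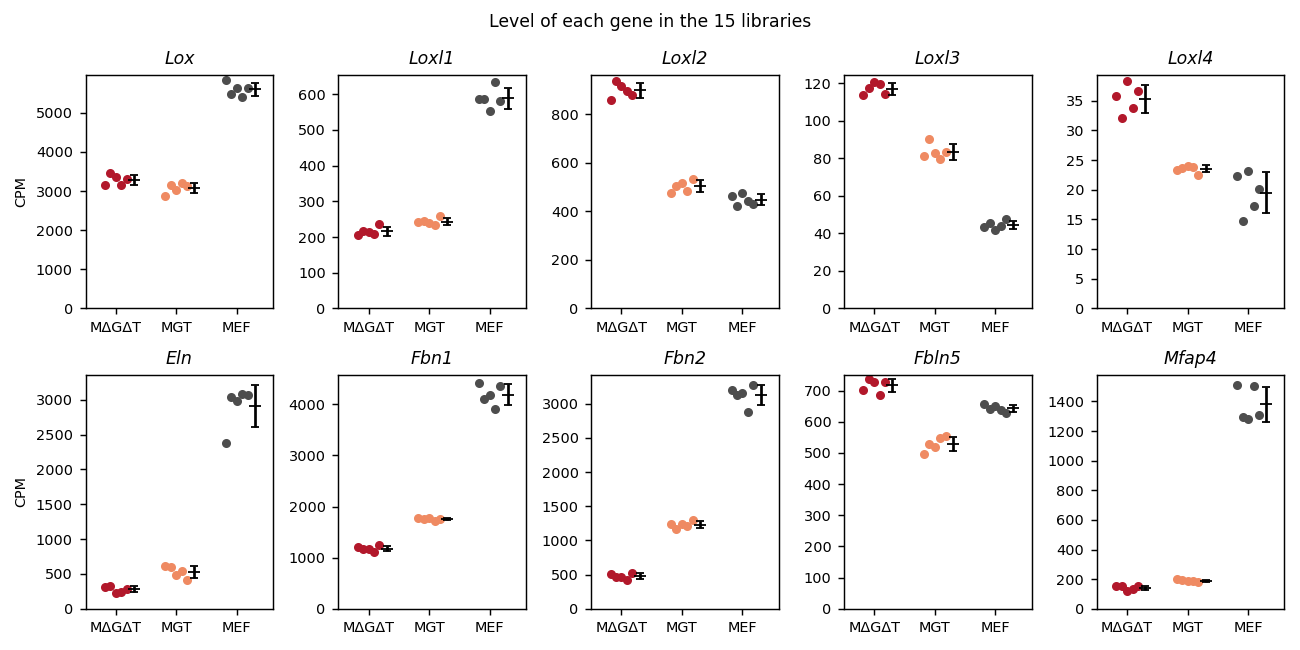
Level of each of the 10 genes in the 15 libraries, in CPM of the adjusted library size (vertical axis, from 0), with the libraries of MΔGΔT, MGT and MEF from left to right and the mean ± SD beside each group. Eln and Mfap4 are lowest in MΔGΔT and highest in MEF, whereas Loxl2, Loxl3 and Loxl4 are highest in MΔGΔT.

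The split of calls depended on how libraries were scaled. Under library totals without adjustment the MΔGΔT against MGT comparison had 2436 features called higher and 6200 lower, in place of 4056 and 3706. Under totals implied by the authors' RPKM (reads per kilobase of gene and mega-read of library), an alternative chosen after the data were seen, these were 1873 and 7278. In MΔGΔT against MEF the same RPKM-implied totals gave 2928 higher and 7158 lower, in place of 4819 and 4818, and in MGT against MEF library totals gave 5181 higher and 3276 lower, in place of 4120 and 4040. The median of all features moved by up to -0.24 log2 in MΔGΔT against MEF and -0.26 in MΔGΔT against MGT under the RPKM-implied totals. Among the 10 genes this turned the direction of 2 small changes, those of Fbln5 in MΔGΔT against MEF and of Lox in MΔGΔT against MGT, which are marked below.

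Lox encodes the founding member of the family and was its most abundant transcript in every library. Its gene lies at chr18:52516067-52529867 on the minus strand (mm10 coordinates from GENCODE M21). The 5 MΔGΔT libraries had 3160, 3472, 3349, 3167 and 3301 CPM of Lox, the MGT libraries 2870, 3149, 3027, 3206 and 3130 CPM, and the MEF libraries 5829, 5490, 5642, 5409 and 5629 CPM. Every transduced library was below every MEF library, and the ranges of MΔGΔT and MGT overlapped. The log2 fold change was -0.77 ± 0.032 in MΔGΔT against MEF (SE, n = 5 libraries per group, adjusted p = 3.5e-23) and -0.86 ± 0.0321 in MGT against MEF (adjusted p = 1.3e-24, edgeR in both). Between MΔGΔT and MGT, Lox was called higher by 0.10 ± 0.0319 (adjusted p = 0.00906), but the direction turned to -0.08 under library totals (adjusted p = 0.0287) and -0.16 under the RPKM-implied totals (adjusted p = 0.00424), and the call was lost without MGT replicate 1 (0.07, adjusted p = 0.0502) and under upper-quartile scaling (0.04, adjusted p = 0.316).

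Loxl1, whose product in the mouse is needed to renew elastic fibres in adult tissues, fell further than Lox. It lies at chr9:58287738-58313186 on the minus strand. Loxl1 had 206.2, 215.8, 215.3, 207.2 and 235.2 CPM in MΔGΔT, 242.6, 244.5, 239.3, 233.3 and 257.7 CPM in MGT, and 586.2, 587.3, 552.3, 633.6 and 580.6 CPM in MEF. The transduced libraries all lay below the MEF libraries, and the highest MΔGΔT library reached into the MGT range. It was 2.72-fold lower in MΔGΔT (log2 fold change -1.45 ± 0.0393, adjusted p = 1.8e-29) and 2.42-fold lower in MGT than in MEF (-1.27 ± 0.0388, adjusted p = 2.1e-27). MΔGΔT was lower than MGT by a small margin, with a log2 fold change of -0.17 ± 0.0394 (adjusted p = 2.6e-04).

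The other branch of the family shares scavenger receptor cysteine-rich domains ahead of the catalytic domain, which Lox and Loxl1 lack. Loxl2, known for the crosslinking of collagen IV in basement membranes, lies at chr14:69609068-69695834 on the plus strand. It had 860.2, 938.7, 918.4, 897.8 and 878.8 CPM in MΔGΔT, 474.4, 506.8, 518.1, 483.6 and 534.4 CPM in MGT, and 464.2, 423.4, 477.8, 444.5 and 429.2 CPM in MEF. The MΔGΔT libraries stood clear of both other groups, which overlapped each other. Loxl2 was 2.01-fold higher in MΔGΔT than in MEF (log2 fold change 1.01 ± 0.0371, adjusted p = 5.5e-25) and 1.79-fold higher than in MGT (0.84 ± 0.0368, adjusted p = 6.9e-22). The rise in MGT against MEF was small, at 0.17 ± 0.037 on the log2 scale (adjusted p = 1.4e-04).

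Loxl3, which in the mouse is needed for normal palate and spine development, had the largest rise of the family against MEF in both transduced groups. Its gene lies at chr6:83034173-83052562 on the plus strand. The MΔGΔT libraries held 113.5, 117.2, 120.6, 119.7 and 114.0 CPM of Loxl3, the MGT libraries 80.95, 90.07, 82.6, 79.52 and 83.32 CPM, and the MEF libraries 43.59, 45.63, 41.77, 44.09 and 47.44 CPM. The 3 groups did not overlap. The log2 fold change was 1.39 ± 0.0456 in MΔGΔT against MEF (adjusted p = 9.1e-27), 0.90 ± 0.0464 in MGT against MEF (adjusted p = 5.6e-20) and 0.49 ± 0.0415 in MΔGΔT against MGT (adjusted p = 3.5e-13). Loxl3 overlaps Htra2 on the opposite strand. Whether the counting used strand is not given in the sources used here, so reads of the shared stretch cannot be assigned with certainty. Htra2 itself was at -0.20 log2 in both MΔGΔT and MGT against MEF.

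Loxl4, at chr19:42593982-42612813 on the minus strand, was the least abundant of the 10 genes per length. It had 35.77, 32.08, 38.22, 33.77 and 36.61 CPM in MΔGΔT, 23.4, 23.72, 24.06, 23.81 and 22.54 CPM in MGT, and 22.25, 14.76, 23.07, 17.27 and 20.09 CPM in MEF. The MΔGΔT libraries were above all others, and the MEF libraries spread widely and reached the MGT range. Loxl4 rose by 0.86 ± 0.0809 log2 in MΔGΔT against MEF (adjusted p = 6.3e-12) and by 0.58 ± 0.0762 in MΔGΔT against MGT (adjusted p = 2.7e-08). The smaller rise in MGT against MEF, 0.27 ± 0.0842 (adjusted p = 0.00507), was not called without MEF replicate 2 (0.17, adjusted p = 0.0553).

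**Figure D2:**
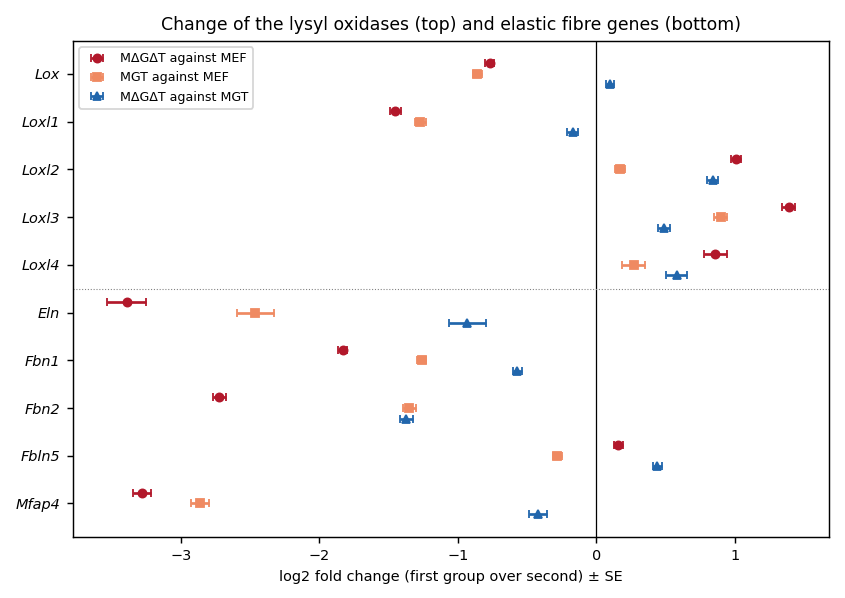
Log2 fold change ± SE of each gene from the edgeR fit (horizontal axis, first group over second) for MΔGΔT against MEF, MGT against MEF and MΔGΔT against MGT, 5 libraries per group. Lox and Loxl1 lie left of 0 against MEF and Loxl2 to Loxl4 right of it, while Eln and Mfap4 reach -3.39 and -3.28 in MΔGΔT against MEF. The values are those of adjusted library sizes, and the points of Fbln5 in MΔGΔT against MEF and Lox in MΔGΔT against MGT change side under RPKM-implied totals.

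These opposite changes altered the make-up of lysyl oxidase transcripts, which was read per length from the deposited RPKM values. Because shares are taken within a library, they do not depend on its scaling. Lox made up 65.6 ± 0.508% of the summed RPKM of the 5 lysyl oxidases in MΔGΔT, 72.5 ± 1.03% in MGT and 78.4 ± 0.753% in MEF (SD, n = 5). Loxl2 made up 24.7 ± 0.569% in MΔGΔT, 16.3 ± 0.678% in MGT and 8.61 ± 0.302% in MEF. The share of Loxl1 was 6.29 ± 0.328% in MΔGΔT, 8.38 ± 0.376% in MGT and 12 ± 0.742% in MEF. Loxl2, Loxl3 and Loxl4 together thus held 28.1 ± 0.641%, 19.1 ± 0.733% and 9.63 ± 0.301% of the family in MΔGΔT, MGT and MEF, and no 2 groups overlapped. The RPKM ratio of Lox to Loxl2 was 2.66 ± 0.0785 in MΔGΔT, 4.45 ± 0.256 in MGT and 9.11 ± 0.35 in MEF. The summed RPKM of the family was 571 ± 35.8 in MΔGΔT, 577 ± 33 in MGT and 959 ± 35.1 in MEF. On this scale the transduced groups had overlapping sums with different make-up. Unlike the shares, the sums depend on the library totals behind the RPKM. Set against adjusted library sizes, the RPKM-implied totals moved the median of all features by -0.26 log2 in MΔGΔT against MGT.

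**Figure D3:**
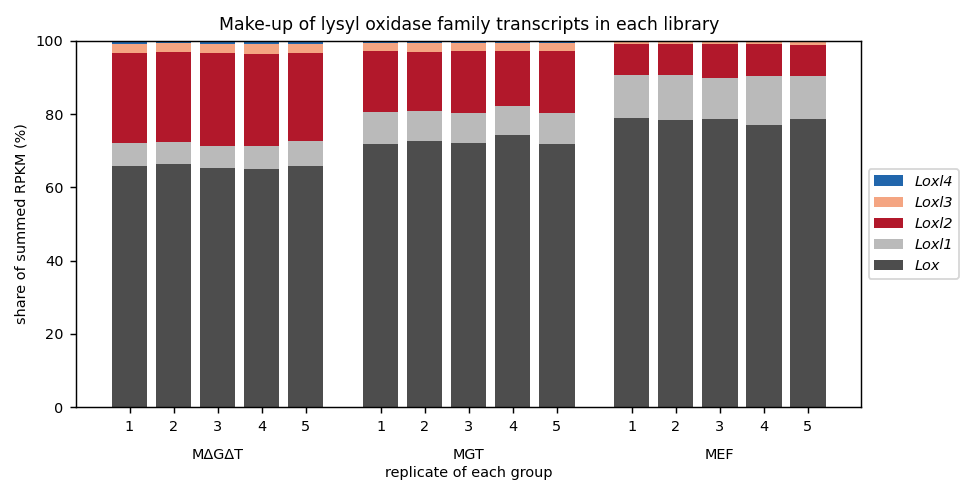
Share of each lysyl oxidase in the summed RPKM of the family (vertical axis, percent), 1 bar per library, with MΔGΔT, MGT and MEF from left to right. The Loxl2 share is 23.9 to 25.3% in MΔGΔT, 15.2 to 16.9% in MGT and 8.36 to 9.08% in MEF.

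Eln, which encodes tropoelastin, had the largest change of the 10 genes in MΔGΔT against MEF. It lies at chr5:134702593-134747323 on the minus strand. The MΔGΔT libraries had 314.2, 321.9, 229, 240.4 and 288.6 CPM of Eln, the MGT libraries 614.8, 596.5, 488, 543 and 410.3 CPM, and the MEF libraries 2384, 3048, 2980, 3085 and 3065 CPM. The groups did not overlap, and MEF replicate 1 stood below the other MEF libraries. Eln was 10.4-fold lower in MΔGΔT than in MEF (log2 fold change -3.39 ± 0.14, adjusted p = 4.3e-11) and 5.49-fold lower in MGT than in MEF (-2.46 ± 0.133, adjusted p = 1.4e-09). MΔGΔT was 1.90-fold lower than MGT (-0.93 ± 0.132, adjusted p = 4.1e-05). Per length, Eln ranked 1008th by mean RPKM of the 14091 features in MΔGΔT, 407th in MGT and 48th in MEF.

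Mfap4 fell almost as far, and most of its fall was already present with the unaltered factors. It lies at chr11:61485431-61488900 on the plus strand. Mfap4 had 153.2, 151, 122, 135.3 and 150.5 CPM in MΔGΔT, 200.6, 191.4, 189.3, 188.6 and 180.3 CPM in MGT, and 1510, 1297, 1282, 1507 and 1309 CPM in MEF. The groups did not overlap. It was 9.70-fold lower in MΔGΔT than in MEF (log2 fold change -3.28 ± 0.0672, adjusted p = 5.8e-18) and 7.26-fold lower in MGT than in MEF (-2.86 ± 0.0652, adjusted p = 4.8e-17). The further difference of MΔGΔT against MGT was -0.42 ± 0.0654 (adjusted p = 3.0e-05). Mfap4 overlaps Mapk7 on the opposite strand, with the same limit as for Loxl3, and Mapk7 was at -0.56 in MΔGΔT and -0.51 in MGT against MEF on the log2 scale.

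The fibrillins, which form the microfibril scaffold, both fell and in different measure. Fbn2, known mainly from developing tissues, lies at chr18:58008623-58210487 on the minus strand. It had 509.6, 459, 460.8, 426.1 and 527.7 CPM in MΔGΔT, 1238, 1170, 1242, 1215 and 1296 CPM in MGT, and 3202, 3133, 3164, 2885 and 3279 CPM in MEF. Again the groups did not overlap. Fbn2 was 6.57-fold lower in MΔGΔT (log2 fold change -2.72 ± 0.0491, adjusted p = 8.3e-24) and 2.54-fold lower in MGT than in MEF (-1.35 ± 0.0466, adjusted p = 7.8e-18). The step between the transduced groups was as large, at -1.37 ± 0.0473 in MΔGΔT against MGT (adjusted p = 1.4e-17), the largest of the 10 genes in that comparison. Fbn2 overlaps Gm26507 on the opposite strand, which was listed but had too few counts to be tested.

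Fbn1, the fibrillin altered in Marfan syndrome, changed less between the transduced groups. It lies at chr2:125300594-125507993 on the minus strand. Fbn1 had 1204, 1170, 1164, 1103 and 1246 CPM in MΔGΔT, 1769, 1750, 1767, 1721 and 1749 CPM in MGT, and 4412, 4114, 4182, 3900 and 4353 CPM in MEF. None of these ranges overlapped. The log2 fold change was -1.83 ± 0.0338 in MΔGΔT against MEF (adjusted p = 3.1e-35), -1.26 ± 0.0332 in MGT against MEF (adjusted p = 1.5e-29) and -0.57 ± 0.033 in MΔGΔT against MGT (adjusted p = 4.0e-18). The RPKM ratio of Fbn1 to Fbn2 was 2.17 ± 0.0929 in MΔGΔT, 1.24 ± 0.0448 in MGT and 1.17 ± 0.0218 in MEF (SD, n = 5).

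Fbln5 was the only one of the 5 elastic fibre genes without a large fall, and the only one of the 10 genes whose direction against MEF differed between the factor sets, which held under TMM scaling and not under RPKM-implied totals. Its gene lies at chr12:101746565-101819055 on the minus strand. It had 702.8, 737.4, 728.3, 684.4 and 728.4 CPM in MΔGΔT, 495.8, 527.4, 519.8, 547.5 and 553.2 CPM in MGT, and 655.7, 640.6, 651.1, 639 and 629.3 CPM in MEF. The MGT libraries lay below the MEF libraries and the MΔGΔT libraries above them. Fbln5 fell in MGT against MEF by 0.28 log2 (SE 0.0329, adjusted p = 1.0e-09). In MΔGΔT against MEF it was called higher by 0.16 ± 0.0328 (adjusted p = 6.3e-05), but the call was lost under upper-quartile scaling (0.07, adjusted p = 0.0503) and library totals (0.06, adjusted p = 0.0996), and the direction turned to -0.08 under the RPKM-implied totals (adjusted p = 0.134). The difference between the factor sets kept its direction under these scalings, at 0.44 ± 0.0328 in MΔGΔT against MGT (adjusted p = 1.2e-14) and 0.18 under the RPKM-implied totals (adjusted p = 0.00153). The RPKM ratio of Eln to Fbln5, elastin over the protein that places it, was 0.401 ± 0.0582 in MΔGΔT, 1.04 ± 0.197 in MGT and 4.67 ± 0.53 in MEF.

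Start-site windows of 300 bases from RefSeq (GRCm38.p6), from 250 before to 50 after the annotated start, were matched for 3 of the 10 genes in the table used here. Each of these 3 genes is shown, whatever its change. Against MEF, Fbn1 was lower in both transduced groups and Loxl4 higher in both. Fbln5 was lower in MGT and above MEF in MΔGΔT by the main scaling. All 3 are on the minus strand and are printed 5′ to 3′ in the direction of the gene. The 50 bases from the RefSeq start on are in capitals. These starts can differ from those of the GENCODE genes given above. The Fbn1 window lies inside the GENCODE gene, and the printed Fbln5 window lies wholly upstream of it. The windows are chr2:125506389-125506688 for Fbn1, chr12:101819070-101819369 for the first of 2 Fbln5 starts, and chr19:42612757-42613056 for Loxl4.
Fbn1: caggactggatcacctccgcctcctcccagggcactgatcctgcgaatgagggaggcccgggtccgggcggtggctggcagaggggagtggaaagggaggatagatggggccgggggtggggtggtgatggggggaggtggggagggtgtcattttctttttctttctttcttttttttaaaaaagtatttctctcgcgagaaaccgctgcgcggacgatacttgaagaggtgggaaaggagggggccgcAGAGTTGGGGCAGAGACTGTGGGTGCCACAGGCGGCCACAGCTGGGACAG
Fbln5: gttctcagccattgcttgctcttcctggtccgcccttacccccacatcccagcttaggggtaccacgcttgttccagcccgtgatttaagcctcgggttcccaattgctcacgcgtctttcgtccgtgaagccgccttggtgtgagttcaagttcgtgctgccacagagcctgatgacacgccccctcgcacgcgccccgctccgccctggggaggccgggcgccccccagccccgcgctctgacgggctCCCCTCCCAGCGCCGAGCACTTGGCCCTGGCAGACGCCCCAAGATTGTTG
Loxl4: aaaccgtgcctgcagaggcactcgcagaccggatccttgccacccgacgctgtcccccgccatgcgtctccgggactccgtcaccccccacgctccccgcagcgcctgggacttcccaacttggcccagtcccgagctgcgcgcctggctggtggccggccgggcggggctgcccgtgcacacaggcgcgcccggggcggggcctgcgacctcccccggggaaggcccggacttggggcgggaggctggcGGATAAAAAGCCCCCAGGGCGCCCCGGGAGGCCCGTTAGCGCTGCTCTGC

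The windows of Fbn1, Fbln5 and Loxl4 held 60.3%, 65.7% and 75.0% G and C, beside a median of 52.7% over all 32841 promoters of this length, and the second Fbln5 window held 48.7%. Motifs of GATA, T-box and MEF2 factors and the CArG box of serum response factor were searched on both strands of the 4 windows. The GATA motif, spelled as GATA with A or T before it and A or G after it, had 0 matches, beside 29.8% of all promoters with at least 1. The T-box letters AGGTGT had 0 matches as well, beside 13.7% of all promoters. The MEF2 site and the CArG box also had 0, beside 3.19% and 1.63% of all promoters. This says only that these letters are not in these windows.

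Set beside each other per length, the 10 genes changed order. In MΔGΔT the order by mean RPKM was Lox (375), Loxl2 (141), Fbln5 (67.3), Fbn1 (53.8), Mfap4 (40.6), Loxl1 (35.9), Eln (27.0), Fbn2 (24.9), Loxl3 (14.7) and Loxl4 (4.59). Neighbours in that order whose libraries overlapped were Mfap4 with Loxl1 and Eln with Fbn2. In MGT the order was Lox (418), Fbn1 (95.4), Loxl2 (94.1), Fbn2 (76.8), Mfap4 (64.7), Eln (61.4), Fbln5 (59.3), Loxl1 (48.3), Loxl3 (12.7) and Loxl4 (3.65), and Fbn1 overlapped Loxl2, Mfap4 overlapped Eln, and Eln overlapped Fbln5. In MEF the order was Lox (751), Mfap4 (464), Eln (333), Fbn1 (225), Fbn2 (193), Loxl1 (115), Loxl2 (82.6), Fbln5 (71.2), Loxl3 (6.77) and Loxl4 (2.99), with no overlap between neighbours. Loxl2 thus stood the second in MΔGΔT and the seventh in MEF, and Eln the seventh in MΔGΔT and the third in MEF. The 5 elastic fibre genes summed to 214 ± 17.3 RPKM in MΔGΔT, 358 ± 14.1 RPKM in MGT and 1290 ± 59.7 RPKM in MEF. Together the 10 genes took 0.69 ± 0.0205% of all counts in MΔGΔT, 0.864 ± 0.0106% in MGT and 1.90 ± 0.0266% in MEF.

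The partners of elastin and fibrillin moved in both directions. Of 30 tested genes on this list, 9 were called higher and 19 lower in MΔGΔT against MEF (median log2 fold change -0.62), and 8 higher and 18 lower in MGT against MEF (median -0.36). Medians over all features tested were -0.01 and 0.00. Of all features, 36.2% and 30.9% were called higher and 36.1% and 30.3% lower in these comparisons. In MΔGΔT against MGT, 13 were higher and 12 lower, with a median of -0.01. All features had a median of 0.01, with 30.4% called higher and 27.8% lower. Mfap2 and Mfap5 encode the small microfibril-associated glycoproteins that sit on fibrillin. Mfap2 averaged 23.8 ± 3.06 CPM in MΔGΔT, 60.9 ± 5.4 CPM in MGT and 240 ± 15.1 CPM in MEF, 10.1-fold lower in MΔGΔT than in MEF (adjusted p = 3.0e-22, edgeR) and 3.93-fold lower in MGT than in MEF (adjusted p = 1.1e-18). Mfap5 fell by 1.63 and 1.23 log2 in MΔGΔT and MGT against MEF.

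The fibulins did not follow 1 pattern. Fbln1, a component of the elastin core, averaged 41.5 ± 5.12 CPM in MΔGΔT, 179 ± 16.4 CPM in MGT and 283 ± 18.7 CPM in MEF, and its log2 fold change in MΔGΔT against MGT was -2.12 ± 0.0821 (adjusted p = 4.0e-13, edgeR). Fbln2 was lower than in MEF in both transduced groups, by -0.69 in MΔGΔT and -1.30 in MGT, and was higher in MΔGΔT than in MGT (0.61, adjusted p = 1.0e-18). Efemp1, which encodes fibulin-3, rose in both, averaging 432 ± 8.19 CPM in MΔGΔT, 455 ± 18 CPM in MGT and 75.4 ± 10.1 CPM in MEF, while MΔGΔT against MGT was -0.08 and not called (adjusted p = 0.224). Efemp2 encodes fibulin-4, which brings lysyl oxidase to elastin. It fell in MGT against MEF (-0.36, adjusted p = 7.2e-11), and its value of 0.09 in MΔGΔT against MEF (adjusted p = 0.0345) turned to -0.01 under library totals and -0.15 under RPKM-implied totals. That call was also lost without MEF replicate 2, 3 or 5 or MΔGΔT replicate 3 or 5, at 0.07 to 0.08.

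The latent TGF-beta binding proteins, which sit on microfibrils and hold the inactive growth factor, also divided. Ltbp1 averaged 1300 ± 40.6 CPM in MΔGΔT, 548 ± 9.1 CPM in MGT and 231 ± 8.02 CPM in MEF, 5.64-fold higher in MΔGΔT (adjusted p = 8.7e-40, edgeR) and 2.38-fold higher in MGT than in MEF (adjusted p = 1.4e-29). Ltbp4, which supports elastin assembly through fibulin-5, fell by 1.37 and 0.86 log2 in MΔGΔT and MGT against MEF. Ltbp2 was at -0.98 and -1.31 and Ltbp3 at -0.23 and -0.37 in the same comparisons, all called lower. Emilin1, found where elastin meets the microfibril, rose by 0.70 in MΔGΔT and 0.24 in MGT against MEF. Emilin2, by contrast, was at -2.96 in MΔGΔT against MEF and was not called in MGT against MEF (-0.16, adjusted p = 0.0754, edgeR). Adamtsl2, whose product binds fibrillin and Ltbp1, rose to 157 ± 9.08 CPM in MΔGΔT and 103 ± 6.79 CPM in MGT, against 10.5 ± 1.41 CPM in MEF. Most related genes of this list fell in MΔGΔT against MEF. Adamts17 was at -2.93, Adamtsl4 at -1.29, Adamtsl1 at -1.22, Thsd4 at -1.03, Adamts10 at -0.56 and Adamtsl3 at -0.52, while Adamts6 was at 1.37.

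**Figure D4:**
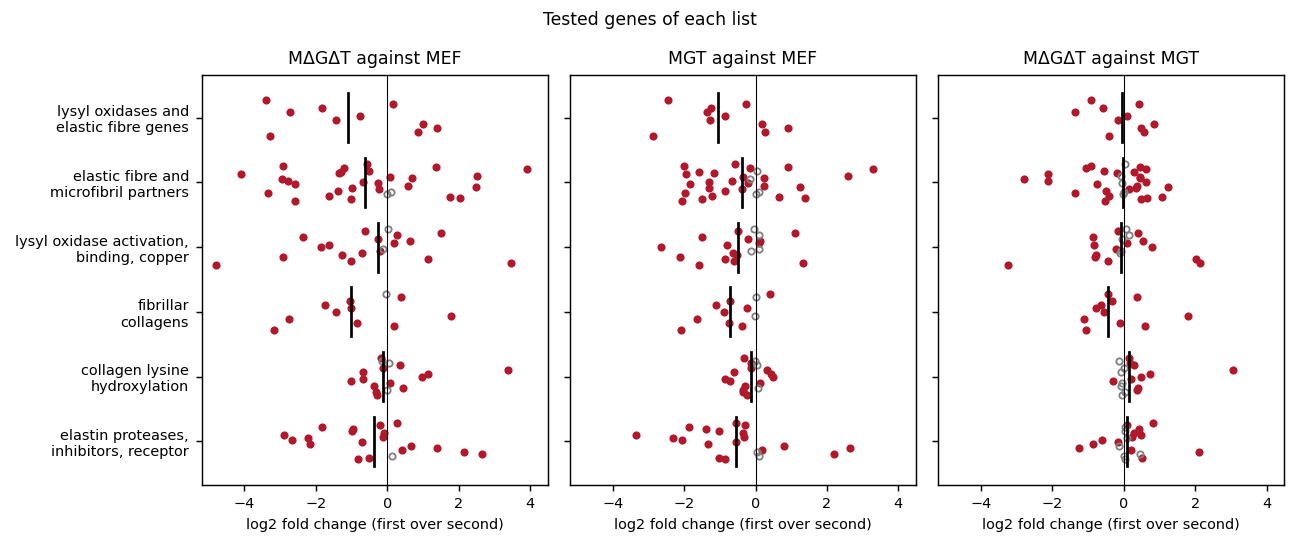
Log2 fold change of each tested gene (horizontal axis, first group over second) for the 10 genes and the lists of elastic fibre partners, lysyl oxidase activation and copper supply, fibrillar collagens, lysine hydroxylation, and elastin-degrading proteases and inhibitors, for the 3 comparisons. Filled points passed an adjusted p under 0.05, open points did not, and bars are list medians. The fibrillar collagens have the lowest median of the 5 lists beside the 10 genes in MΔGΔT against MEF, at -1.03.

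Genes that activate, bind or supply lysyl oxidases were followed as a list of 19. In MΔGΔT against MEF, 6 were called higher and 11 lower (median -0.27), beside 36.2% and 36.1% of all features. In MGT against MEF 4 were higher and 11 lower (median -0.48), beside 30.9% and 30.3% of all features. In MΔGΔT against MGT 6 were higher and 8 lower (median -0.08), beside 30.4% and 27.8% of all features. Under RPKM-implied totals 13 were lower in this last comparison. Bmp1 encodes the protease that cleaves the propeptide of lysyl oxidase. It averaged 867 ± 23.4 CPM in MΔGΔT, 657 ± 22 CPM in MGT and 306 ± 11.3 CPM in MEF, 2.83-fold higher in MΔGΔT and 2.14-fold higher in MGT than in MEF (adjusted p = 3.2e-32 and 2.3e-27, edgeR). Pcolce, whose product speeds the cleavage of procollagen by Bmp1, was 0.18 and 0.09 log2 above MEF in MΔGΔT and MGT, and the first of these turned to -0.06 under RPKM-implied totals. Atp7a, the copper pump that loads secreted copper enzymes, fell by 0.63 in MΔGΔT and 0.48 in MGT against MEF. Steap3, a metal reductase, fell by 2.92 and 2.12 in the same comparisons. Of the other genes listed for copper supply, Atox1 (0.02 and -0.04) and Slc31a1 (-0.12 and 0.09) were not called in either by the main scaling.

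Several matrix proteins bind lysyl oxidase or its activator. Thbs1, which encodes thrombospondin-1, averaged 12800 ± 510 CPM in MΔGΔT, 3180 ± 107 CPM in MGT and 5780 ± 189 CPM in MEF. It was higher in MΔGΔT than in MEF (log2 fold change 1.15) and lower in MGT than in MEF (-0.86), and MΔGΔT against MGT was 2.02 ± 0.0318 (adjusted p = 1.4e-36, edgeR). Postn, which encodes periostin, averaged 968 ± 27 CPM in MΔGΔT, 558 ± 29.1 CPM in MGT and 3520 ± 153 CPM in MEF. Fmod, whose product fibromodulin binds lysyl oxidase and collagen, fell by 2.36 in MΔGΔT and 1.49 in MGT against MEF on the log2 scale.

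Most of the collagens that lysyl oxidases crosslink fell against MEF. Of 11 fibrillar collagen genes, 3 were called higher and 7 lower in MΔGΔT against MEF (median -1.03), beside 36.2% and 36.1% of all features. Under RPKM-implied totals 1 was called higher there. In MGT against MEF 1 was higher and 8 lower (median -0.72), beside 30.9% and 30.3% of all features. In MΔGΔT against MGT 3 were higher and 8 lower (median -0.44), beside 30.4% and 27.8% of all features. Col1a1 and Col1a2, the chains of collagen I, were at -1.04 and -1.74 in MΔGΔT and at -0.72 and -1.10 in MGT against MEF. Col3a1, the collagen III chain that is mixed into fibrils of elastic tissues, averaged 1870 ± 143 CPM in MΔGΔT, 4000 ± 195 CPM in MGT and 12600 ± 1050 CPM in MEF (adjusted p = 1.3e-14 and 7.0e-12 against MEF, edgeR). The genes called higher in MΔGΔT against MEF were Col2a1 at 1.79 ± 0.136 (17.9 ± 1.59 CPM in MΔGΔT, 5.15 ± 1.01 CPM in MEF), Col11a2 at 0.38 ± 0.144 (adjusted p = 0.0194), and Col5a2 at 0.20, which turned to -0.04 under RPKM-implied totals. The call of Col11a2 was lost without MEF replicate 1, 3 or 4 or MΔGΔT replicate 1 or 4, and under upper-quartile scaling, library totals and RPKM-implied totals, at 0.14 to 0.34. The gene called higher in MGT against MEF was Col11a1, at 0.40 ± 0.0334 (adjusted p = 2.1e-13). Summed lysyl oxidase RPKM came to 43.8 ± 1.65% of the summed Col1a1, Col1a2 and Col3a1 RPKM in MΔGΔT, 27.0 ± 1.2% in MGT and 23.7 ± 2.28% in MEF. The MΔGΔT libraries lay above all others in this ratio, and the MGT and MEF libraries overlapped.

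Crosslinking also depends on prior hydroxylation of collagen lysines. The lysine hydroxylation list has 17 genes. Beside the lysyl hydroxylases Plod1, Plod2 and Plod3 it holds prolyl hydroxylases and genes of collagen folding and glycosylation. Of the 17, 6 were called higher and 8 lower in MΔGΔT against MEF (36.2% and 36.1% of all features). In MGT against MEF 4 were higher and 10 lower (30.9% and 30.3%). In MΔGΔT against MGT 9 were higher and 1 lower (30.4% and 27.8%). This last split was sensitive to scaling and became 4 higher and 8 lower under RPKM-implied totals. The list's median absolute log2 fold change was 0.35, 0.32 and 0.18 in these comparisons, beside 0.38, 0.26 and 0.24 for all features. Plod2, the lysyl hydroxylase of collagen telopeptides, averaged 216 ± 9.86 CPM in MΔGΔT, 165 ± 10.2 CPM in MGT and 158 ± 8.63 CPM in MEF, and was called higher in MΔGΔT against MEF (0.45, adjusted p = 7.5e-12, edgeR) and not in MGT against MEF (0.06, adjusted p = 0.261). Plod1 was lower in both, at -0.38 and -0.30. Plod3 was not called in MΔGΔT against MEF (adjusted p = 0.991) and was at -0.36 in MGT against MEF (adjusted p = 1.2e-10, edgeR in both). The largest change of the list in MΔGΔT against MEF was in P3h2, a prolyl 3-hydroxylase, at 121 ± 7.39 CPM in MΔGΔT, 14.6 ± 0.573 CPM in MGT and 11.6 ± 0.859 CPM in MEF. P3h4, which takes part in lysyl hydroxylation of helical collagen, rose by 1.15 and 0.42, and P4ha1, a prolyl 4-hydroxylase subunit, by 0.96 and 0.49 in MΔGΔT and MGT against MEF. Their relatives P4ha2, P4ha3 and P3h3 fell, at -0.67, -1.03 and -0.69 in MΔGΔT and at -0.86, -0.72 and -0.61 in MGT against MEF.

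Of 29 listed elastin-degrading proteases, inhibitors and elastin receptor genes, 20 were tested. In MΔGΔT against MEF 6 were called higher and 13 lower (median -0.36), beside 36.2% and 36.1% of all features. In MGT against MEF 4 were higher and 14 lower (median -0.55), beside 30.9% and 30.3% of all features. In MΔGΔT against MGT 9 were higher and 4 lower (median 0.09), beside 30.4% and 27.8% of all features. This last split became 4 higher and 8 lower under RPKM-implied totals. Mmp12, macrophage elastase, averaged 14.5 ± 2.2 CPM in MΔGΔT, 22.1 ± 4.2 CPM in MGT and 92.2 ± 7.12 CPM in MEF. Mmp2, gelatinase A, was 4.49-fold lower in MΔGΔT and 2.49-fold lower in MGT than in MEF (adjusted p = 5.8e-18 and 2.4e-14, edgeR). The lysosomal proteases Ctsb, Ctsd and Ctsk were at -1.84, -0.96 and -0.98 in MΔGΔT against MEF and at -1.87, -1.39 and -1.01 in MGT against MEF. All 15 tested macrophage and leukocyte markers fell in the same comparisons, with medians of -3.72 and -3.52 log2, and their part in these protease values was not tested. Serpinb1a, an inhibitor of neutrophil elastase, rose in MΔGΔT to 28.7 ± 1.28 CPM, against 6.60 ± 0.731 CPM in MGT and 6.51 ± 1.14 CPM in MEF (adjusted p = 2.4e-22 against MGT and 1.8e-22 against MEF). Other proteases and inhibitors went the opposite way. The protease Mmp9, at 1.38 ± 0.239 CPM in MEF, was at 1.4 in MΔGΔT and 2.66 in MGT against MEF on the log2 scale. The inhibitors Timp2 and Timp3 were at -0.51 and -0.82 in MΔGΔT and at -1.02 and -0.86 in MGT against MEF. Cst3, also an inhibitor, was at 0.27 and -0.54.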

How the data were processed

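Total RNA without its ribosomal part was sequenced as directional libraries, per the labels' protocols. The authors deposited whole-number counts and RPKM for each feature in each library, as the file headers name them. Per the submitters' processing notes the build was mm10. The sources used here do not name the mapper, the counter or the strand setting. All 30 value columns used were matched to a sample by the library name that the file header and the sample's description share, and 0 were unmatched. A date replaced the symbol of 21 features with 0.258% of the counts, which stayed in the fit unnamed.

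The deposited counts were fitted with edgeR 4.0.16 in R 4.3.3, after filterByExpr by group (13328 features left) and TMM scaling. A robust quasi-likelihood model held all 15 libraries with group as its term, 12 residual degrees of freedom and a biological coefficient of variation of 4.86%. It was tested on simulated data with far fewer changed features than were called here, in balanced directions, so that test says nothing about the choice of scaling. p-values were adjusted by Benjamini-Hochberg over all tested features, and adjusted p-values without another name come from this model. A gene is called at an adjusted p under 0.05. The SE was derived from the F statistic. CPM are of TMM-adjusted library sizes. Levels of different genes were compared only on the authors' deposited RPKM, which are per length and carry a library total of their own. Mean depth was 10.2 ± 0.476 mega-counts in MΔGΔT, 10.4 ± 0.821 in MGT and 9.26 ± 0.857 in MEF (SD, n = 5).

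The genes and lists were chosen with earlier results of these data known. Named beside the 10 genes are up to 6 genes per list and comparison with the smallest adjusted p, and genes with a known direct role. Alternatives were RLE and upper-quartile scaling, library totals, RPKM-implied totals (added after the data were seen), no filter, DESeq2 1.42.0, only the 2 groups compared, a replicate block, and leaving out each library. Coordinates are from GENCODE M21 and start-site windows from RefSeq.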

Additional observations from a re-analysis of the deposited data

Results flagged for a closer look

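Of the 30 sets of 5 libraries formed by 10 genes in 3 groups, 1 held a library far from the others, where chance gives about 1 in 20. Eln in MEF replicate 1 was at 2384 CPM, against 2980 to 3085 CPM in the other MEF libraries, a gap of 0.85 of the group's range (critical value 0.71). Without that library Eln was at -3.45 in MΔGΔT and -2.52 in MGT against MEF on the log2 scale, in place of -3.39 and -2.46.

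Fbln5 differed between the factor sets, above MEF in all 5 MΔGΔT libraries and below MEF in all 5 MGT libraries by TMM-scaled CPM. The test of the difference itself, MΔGΔT against MGT, gave a log2 fold change of 0.44 (adjusted p = 1.2e-14, edgeR). Under RPKM-implied totals MΔGΔT was at -0.08 against MEF, and the difference between the factor sets was 0.18 (adjusted p = 0.00153).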

How the results depend on the processing

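In each comparison the count of all features called, and of the 10 genes called higher and lower, stayed within 1.5 times its value in all 207 recomputations. For all features higher and lower calls were counted together, so their split, which moved with scaling, is not covered. A lost call among the 10 genes can also stay within that range. With the replicate block 9593 features were called in MΔGΔT against MEF, 8079 in MGT against MEF and 7682 in MΔGΔT against MGT, in place of 9637, 8160 and 7762. Same-numbered libraries deviated from their group means with correlations of -0.092 to 0.067 over 15 pairs. These values show no sign of pairing, and they cannot tell whether such libraries were prepared together. The replicate block lost no call of the 10 genes. Directions turned for these values in MΔGΔT against MEF: under RPKM-implied totals Fbln5 (-0.08), Col5a2 (-0.04), Efemp2 (-0.15) and Pcolce (-0.06), and under library totals Efemp2 (-0.01). In MΔGΔT against MGT, Lox turned to -0.08 under library totals and -0.16 under RPKM-implied totals. The log2 ratio of mean levels was 0.16 by CPM and -0.08 by RPKM for Fbln5 in MΔGΔT against MEF, and 0.10 by CPM and -0.16 by RPKM for Lox in MΔGΔT against MGT. Other calls of the 10 genes lost were Fbln5 in MΔGΔT against MEF under upper-quartile scaling and library totals, Loxl4 in MGT against MEF without MEF replicate 2, and Lox in MΔGΔT against MGT under upper-quartile scaling and without MGT replicate 1. In MΔGΔT against MGT the lysine hydroxylation list, with 1 lower call, had 2 without MΔGΔT replicate 5, 4 with only these groups fitted, 5 under upper-quartile scaling and 7 under library totals, and the activation list had 13 lower under RPKM-implied totals in place of 8. The fibrillar collagens had 1 higher call in MΔGΔT against MEF under RPKM-implied totals in place of 3. The cause of these shifts was not tested. How the authors' RPKM totals were formed is not given in the labels or headers. Depth did not limit the 10 genes, the lowest of which, Loxl4, had 143 counts in its lowest library.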
